A study of Mus musculus with 6 samples.

Results

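Wilms tumour 1 (*Wt1*) and the genes of 6 proteins known to bind WT1 (*Basp1*, *Pawr*, *Wtap*, *Wtip*, *Cited2* and *Ciao1*) were followed in sorted endothelial cells (ECs) of the embryonic mouse heart. The 7 genes were picked by symbol from the 55416 genes of the count table, and all 7 passed the filter on low counts that left 16296 genes for testing. Ventricles of E15.5 hearts were digested and cells carrying membrane GFP (mGFP) were collected by FACS, with 3 RNA-Seq libraries per genotype that the labels name as biological replicates. ControlΔEC embryos were Pdgfb-CreERT2/+; Wt1-+/+; R26-mTmG/+ and Wt1KOΔEC embryos were Pdgfb-CreERT2/+; Wt1-LoxP/LoxP; R26-mTmG/+. Both genotypes therefore carried the same tamoxifen-inducible Cre and the same reporter, and the dams of both received tamoxifen by gavage at 75 mg/kg between E11.5 and E13.5. Cre was driven by Pdgfb, a gene active in ECs, so the knockout and the GFP mark were limited to cells in which that driver was on.

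WT1 is a zinc finger protein that binds GC-rich DNA and RNA and that activates or represses genes depending on the proteins bound to it. In the heart it is best known from the epicardium, the outer cell layer, and it is also made by ECs of the growing coronary vessels. Of its partners, BASP1 turns WT1 into a repressor by bringing in prohibitin and histone deacetylases, and PAWR (prostate apoptosis response 4) represses WT1-driven transcription and promotes cell death. CITED2 links transcription factors to the acetyltransferases CBP and p300. WTAP, first found as a protein that binds WT1, is a core subunit of the complex that writes the m6A mark on RNA. WTIP is a LIM protein of the Ajuba and zyxin family that moves between cell junctions and the nucleus, and CIAO1 is part of the machinery that puts iron-sulfur clusters into cytosolic and nuclear proteins.

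The libraries held 26037324 to 44779020 counts, and levels are given as CPM, counts scaled to a common library total with TMM factors. The 3 counts taken here as the floor for a gene with no count made 0.0608 to 0.119 CPM. The libraries were amplified by PCR without molecular identifiers, and the floor covers counting error only. Mitochondrially encoded genes took 5.21 to 6.61% of the counts in ControlΔEC and 1.68 to 4.57% in Wt1KOΔEC, and *Rn18s*, a ribosomal RNA gene, took 13.2 to 15.3% and 21.1 to 26.5%. All 9 endothelial markers were detected, and their summed level was 5110 to 6224 CPM in ControlΔEC and 5202 to 5982 CPM in Wt1KOΔEC. Red cell transcripts were also abundant, with 6 erythroid genes summing to 6559 to 14296 CPM in ControlΔEC and 5002 to 8306 CPM in Wt1KOΔEC. The library identifiers carry a different prefix and number series in each genotype, and no batch is named. A batch that follows the genotype therefore cannot be told apart from it.

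Promoter windows reaching from 250 bases before to 50 bases after the start site were taken from RefSeq (GRCm38.p6) and were at hand for 6 of the 7 genes, all except *Wt1*. They were searched on both strands for GCGTGGG and GCGGGGG, letters of the GC-rich elements that WT1 and the related EGR proteins bind. GCGGGGG is also found within the GC-rich runs bound by SP1-type factors. The 6 partners had 8 windows, since *Wtap* has 3. GCGTGGG was in 0 of them, against 5.04% of all 32851 windows. GCGGGGG was in 5 of the 8, which belong to *Basp1*, *Wtap*, *Wtip* and *Ciao1*, against 10.8% of all windows. The matching *Wtap* windows overlap and share a single match, which the 5 count in both windows. The windows of the partners were 66.7 to 80.3% G and C, while the median of all windows was 52.7%. The windows of *Ciao1* (chr2:127247767-127248066, minus strand) and *Pawr* (chr10:108331939-108332238, plus strand) are shown because these were the partners whose levels did not overlap between the genotypes, and capitals mark the GCGGGGG match, read from the opposite strand, that starts 119 bases before the *Ciao1* start site.
Ciao1: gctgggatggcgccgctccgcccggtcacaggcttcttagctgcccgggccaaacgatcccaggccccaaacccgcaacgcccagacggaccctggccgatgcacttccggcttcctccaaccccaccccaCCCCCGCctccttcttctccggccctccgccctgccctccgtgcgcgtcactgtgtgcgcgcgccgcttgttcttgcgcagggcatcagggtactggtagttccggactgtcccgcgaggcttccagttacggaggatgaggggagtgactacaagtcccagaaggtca
Pawr: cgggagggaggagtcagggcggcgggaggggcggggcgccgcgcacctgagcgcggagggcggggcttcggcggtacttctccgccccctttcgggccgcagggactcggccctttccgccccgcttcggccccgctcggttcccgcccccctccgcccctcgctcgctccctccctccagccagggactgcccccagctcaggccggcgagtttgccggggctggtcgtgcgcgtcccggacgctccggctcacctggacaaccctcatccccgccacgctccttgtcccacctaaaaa
The *Pawr* window held neither motif. A match is a description of letters and not a measurement of WT1 binding.

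*Wt1* fell to 13.3% of its ControlΔEC level and was the one of the 7 genes that passed the test. The gene (ENSMUSG00000016458.16) lies on chromosome 2, from 104956625 to 105003961 on the plus strand (GRCm39). It was at 145, 109.5 and 149 CPM in ControlΔEC replicates 1, 2 and 3, from 6489, 5404 and 4287 counts, and at 14.0, 18.4 and 21.3 CPM in Wt1KOΔEC replicates 1, 2 and 3, from 547, 655 and 538 counts. The genotypes were far apart, with the lowest ControlΔEC library well above the highest Wt1KOΔEC library. The log2 fold change was -2.91 (SE 0.22, 95% interval -3.40 to -2.42), a level 7.52-fold lower (95% interval 5.34 to 10.6), with an adjusted p of 0.00319 by edgeR's quasi-likelihood test. Among all genes tested, 0.0245% were called lower in Wt1KOΔEC, 0.0491% higher and 0.0736% in either direction, a call being an adjusted p under 0.05 with an absolute log2 fold change above 0.58.

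*Wt1* was an abundant transcript of these ECs, and its ControlΔEC mean per kb of exon exceeded that of 91.9% of the 16238 tested genes with a known length. What remained in Wt1KOΔEC was 17.9 ± 3.67 CPM (SD, n = 3), against 134 ± 21.6 CPM in ControlΔEC, and it rested on at least 538 counts in each library. The counts cover every exon of the gene, and the sources used here do not say which exons lie between the LoxP sites, so transcripts that lack only the deleted stretch were counted too. In bulk samples, fewer *Wt1*-expressing cells and less *Wt1* RNA per cell cannot be told apart. The antisense gene *Wt1os* overlaps the first 289 bases of *Wt1* on the opposite strand, and it was at 0.0670, 2.82 and 0.971 CPM in ControlΔEC and 0.691, 0.674 and 0.554 CPM in Wt1KOΔEC. *Wt1os* was uneven within ControlΔEC, where its highest library had 139 counts and its lowest 3, and the genotypes overlapped (log2 fold change -1.004, SE 1.33, adjusted p = 0.839 by edgeR). The study's steps for these SMART-seq2 and Nextera XT libraries name none that marks the strand of the RNA. The strand setting of the counting is not given in the sources used here. At these levels *Wt1os* was small beside *Wt1*.

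None of the 6 partners passed the test, neither in edgeR nor in DESeq2, in which 4.83% of the genes with an adjusted p were called. *Pawr* and *Ciao1*, 2 of the 6, had genotypes without overlap, both higher in Wt1KOΔEC. Of all genes tested, 10.3% were without overlap and higher there, and 19.3% were without overlap in either direction. An unadjusted p under 0.05, found for 13.1% of all genes tested, was found for 0 of the 6. The fitted log2 fold changes of the partners ran from -0.25 to 1.16 with a median of 0.33, while the median of all genes tested was -0.03. The precision differed widely among them, as the plot of fitted changes shows, with narrow intervals for *Wtap* and *Ciao1* and wide ones for *Pawr*, *Wtip* and *Basp1*, which had 18 to 158 counts per library.

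**Figure D1:**
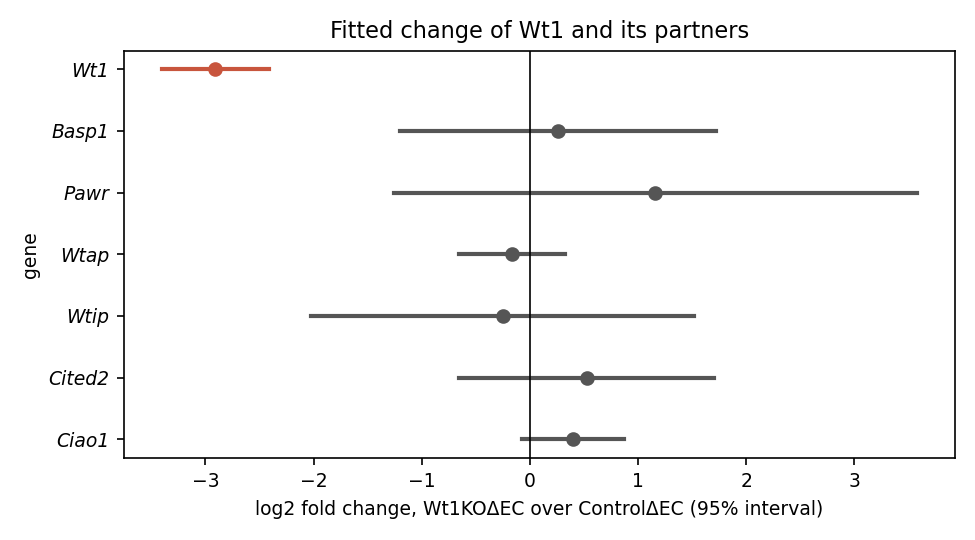
Fitted log2 fold change of *Wt1* and its 6 partners, Wt1KOΔEC over ControlΔEC (x axis), with points for the estimate and bars for the 95% interval from edgeR's quasi-likelihood fit (3 libraries per genotype). *Wt1*, in red, stands at -2.91, while the intervals of all 6 partners cross 0.

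The repressive partners, *Basp1* and *Pawr*, were both scarce. *Basp1*, whose product is a lipid-anchored protein that also acts with WT1 in the nucleus, was at 3.51, 1.76 and 2.29 CPM in ControlΔEC and at 2.07, 3.65 and 3.32 CPM in Wt1KOΔEC. The highest ControlΔEC library lay between the upper Wt1KOΔEC libraries, so the genotypes overlapped almost fully. Its log2 fold change was 0.26 (SE 0.65, 95% interval -1.20 to 1.72, adjusted p = 0.930 by edgeR), from 66 to 157 counts per library. That interval reaches from 0.435 to 3.29 times the ControlΔEC level.

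*Pawr* had the fewest counts of the 7 genes, 18 to 23 in ControlΔEC and 38 to 43 in Wt1KOΔEC. It was at 0.514, 0.365 and 0.797 CPM in ControlΔEC and at 1.10, 1.07 and 1.58 CPM in Wt1KOΔEC. All Wt1KOΔEC libraries lay above all ControlΔEC libraries, also when the counts were scaled by library size only. The log2 fold change of 1.16 had an SE of 1.07 and a 95% interval from -1.26 to 3.58 (adjusted p = 0.742 by edgeR), so that the interval included 0 and reached 11.9 times the ControlΔEC level.

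*Cited2*, the coactivator adaptor, was at 6.79, 7.25 and 1.94 CPM in ControlΔEC and at 8.57, 6.74 and 7.75 CPM in Wt1KOΔEC. One library set most of the difference, since ControlΔEC replicate 3 was low, with 56 counts, while the other ControlΔEC libraries lay among those of Wt1KOΔEC. The log2 fold change was 0.53 (SE 0.52, 95% interval -0.66 to 1.71, adjusted p = 0.764 by edgeR), and it was 0.13 without that library.

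*Wtap*, the m6A writer subunit, was the most abundant partner. It was at 107, 69.7 and 87.2 CPM in ControlΔEC and at 78.0, 62.1 and 95.1 CPM in Wt1KOΔEC. The 2 ranges overlapped over most of their width, and the means of 88.1 ± 18.9 and 78.4 ± 16.5 CPM (SD, n = 3) differed by less than either SD. The log2 fold change was -0.17 (SE 0.22, adjusted p = 0.833 by edgeR), and the 95% interval from -0.66 to 0.32 allows a level of 0.633 to 1.25 times that of ControlΔEC. *Wtap* was thus measured about as precisely as *Wt1*, and a fall of the size seen for *Wt1* lies far outside its interval.

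*Wtip*, the LIM protein gene, was at 3.53, 1.34 and 2.18 CPM in ControlΔEC and at 1.69, 3.09 and 1.15 CPM in Wt1KOΔEC. Its highest and lowest libraries differed severalfold within each genotype and the genotypes overlapped. The log2 fold change was -0.25 (SE 0.78, 95% interval -2.02 to 1.52, adjusted p = 0.946 by edgeR), and its sign turned when either ControlΔEC replicate 1 (0.17) or Wt1KOΔEC replicate 3 (0.02) was left out.

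*Ciao1*, the iron-sulfur assembly gene, came nearest to the threshold among the partners, with an unadjusted p of 0.0885 that became 0.472 after adjustment in edgeR. It was at 35.1, 36.5 and 24.6 CPM in ControlΔEC and at 40.8, 44.9 and 41.2 CPM in Wt1KOΔEC. The genotypes did not overlap with TMM scaling, ControlΔEC replicate 3 being the lowest by a wide margin. They did overlap with library size only, where ControlΔEC replicate 2 was at 40.2 CPM and Wt1KOΔEC replicates 1 and 3 were at 37.4 and 40.0 CPM. The log2 fold change was 0.40 (SE 0.21, 95% interval -0.07 to 0.87), and it was 0.24 without ControlΔEC replicate 3 and 0.25 with library size only.

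The *Ciao1* value is also uncertain for where the gene lies. It is on chromosome 2, like *Wt1*, from 127081683 to 127090312 on the minus strand (GRCm39), 22.1 Mb from the start of *Wt1*. Of its 4493 exonic bases, 3062 are shared with exons of *Snrnp200*, a spliceosome helicase gene on the other strand, and 121 with exons of *Tmem127*. No step that marks strand is named for these libraries, and without strand, reads from these stretches cannot be assigned to one gene. *Snrnp200* was at 101, 119.9 and 133 CPM in ControlΔEC and 114, 149 and 103.5 CPM in Wt1KOΔEC, overlapping ranges with a log2 fold change of 0.05 (SE 0.19, adjusted p = 0.955 by edgeR). The other partners lie on other chromosomes, with *Cited2* and *Pawr* on chromosome 10, *Basp1* on 15, *Wtap* on 17 and *Wtip* on 7.

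**Figure D2:**
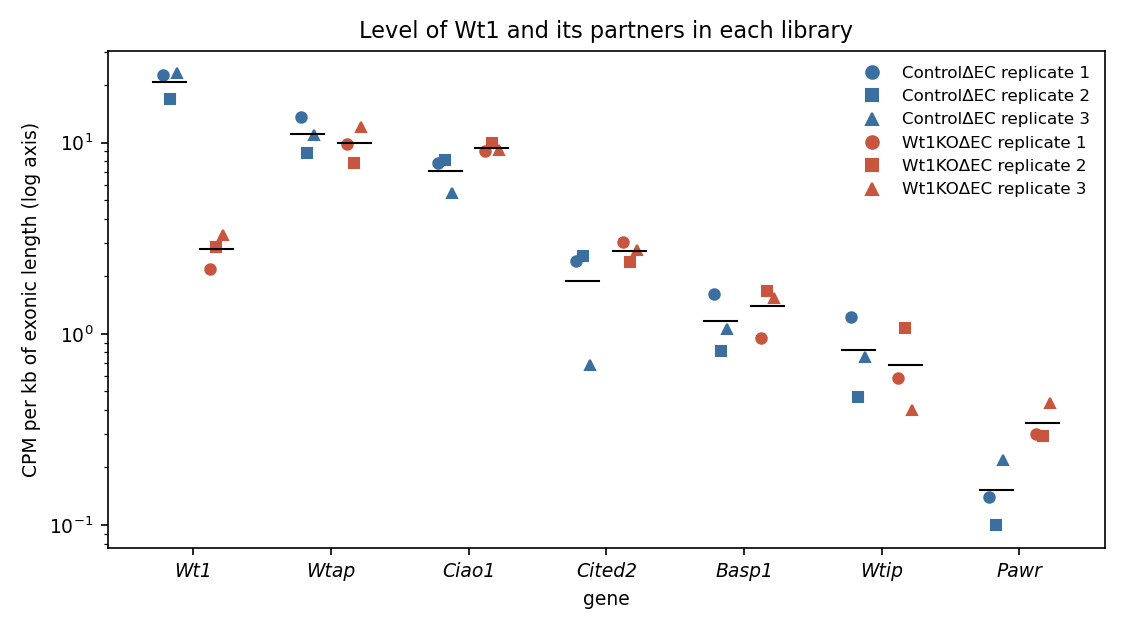
Level of the 7 genes in each library, as CPM per kb of exonic length (y axis, log scale), ordered along the x axis by the ControlΔEC mean, with ControlΔEC in blue, Wt1KOΔEC in red, symbols for the replicates and black lines for the means (n = 3). *Wt1* drops from 20.9 CPM per kb, the highest of the 7 genes in ControlΔEC, to 2.78 in Wt1KOΔEC, beside *Cited2* at 2.72.

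Levels can be compared between genes only per length, so CPM was divided by the union of exons of each gene (2.17 kb for *Basp1* to 7.91 kb for *Wtap*). In ControlΔEC, *Wt1* was the highest at 20.9 ± 3.35 CPM per kb (SD, n = 3), followed by *Wtap* at 11.1 ± 2.39 and *Ciao1* at 7.14 ± 1.44 CPM per kb. The libraries of these 3 genes did not overlap. The *Ciao1* level carries the uncertainty from the exons it shares with *Snrnp200*, and so does its place in the order. Next came *Cited2* at 1.89, *Basp1* at 1.16 and *Wtip* at 0.818 CPM per kb, of which *Cited2* and *Basp1* overlapped, as did *Basp1* and *Wtip*. *Pawr* was the lowest, at 0.153 CPM per kb, and did not overlap with *Wtip*. The order was the same without division by length, with the longest transcript as length and without each ControlΔEC library in turn.

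In Wt1KOΔEC the 6 partners stood in the same order among themselves, and *Wt1* stood below *Wtap* and *Ciao1*. *Wtap* at 9.92 and *Ciao1* at 9.42 CPM per kb led and overlapped, followed by *Wt1* at 2.78 and *Cited2* at 2.72 CPM per kb, which also overlapped. *Basp1* followed at 1.39, *Wtip* at 0.687 and *Pawr* at 0.342 CPM per kb, where *Wtip* overlapped with both of its neighbours. Set against *Wt1* in the same library, the level per kb of *Wtap* was 0.478 to 0.604 times that of *Wt1* in ControlΔEC and 2.75 to 4.55 times in Wt1KOΔEC. The same ratio for *Ciao1* was 0.238 to 0.477 and 2.78 to 4.18, and for *Cited2* 0.0298 to 0.151 and 0.830 to 1.40. These ratios are transcript levels, not protein levels, and their shift carries the fall of *Wt1* itself. Those of *Ciao1* also carry the uncertainty from the exons shared with *Snrnp200*.

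Genes of proteins that work with each partner, or that are also reported to bind WT1, were followed through 7 lists with 58 genes, of which 52 were tested. By edgeR 0 of the 52 were called, 5 had an unadjusted p under 0.05 with a higher level in Wt1KOΔEC and 4 with a lower level. Of all genes tested, 5.96% and 7.12% had such a p in these directions, and the median log2 fold change was 0.05 over the lists and -0.03 over all genes tested. DESeq2 called 3 of the 52, *Gap43*, *Hdac1* and *Prkcz*, against 4.83% of all genes in that test. The plot of the lists shows the single genes.

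**Figure D3:**
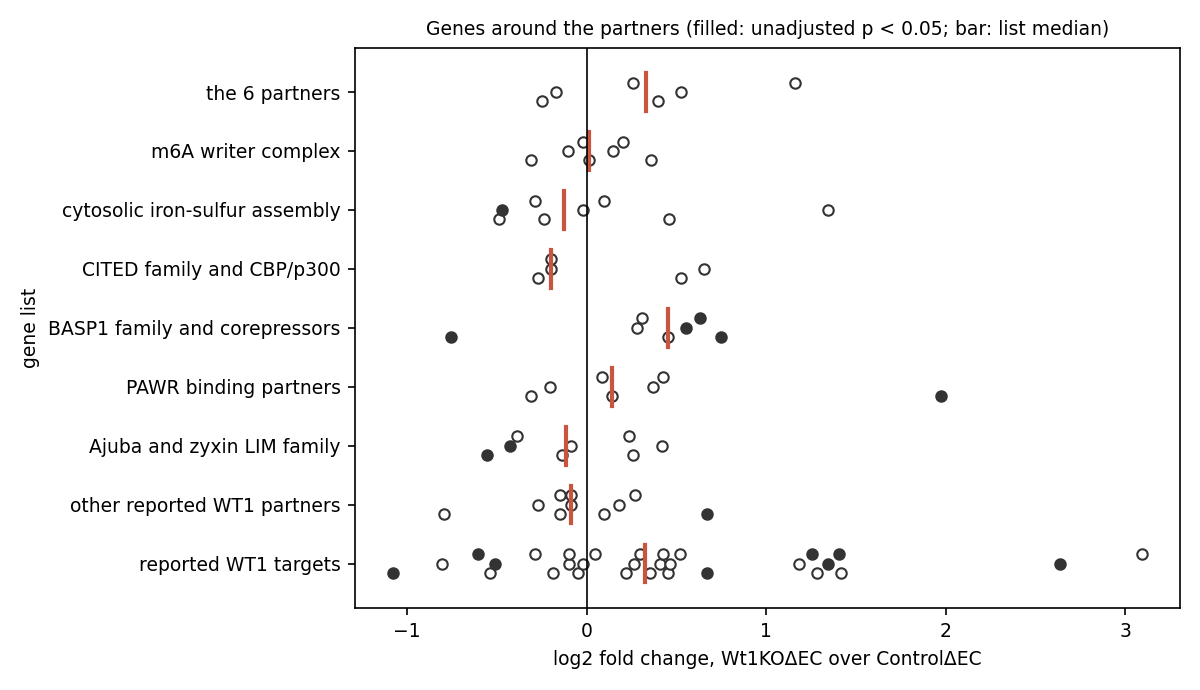
Log2 fold change, Wt1KOΔEC over ControlΔEC (x axis), of each tested gene in the lists around the partners (rows, one circle per gene), with filled circles for an unadjusted p under 0.05 in edgeR and red bars for the list median. The BASP1 family and corepressors have a median of 0.45 with 1 gene, *Hdac2*, on the other side of 0, while the m6A writer complex lies around 0.01.

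The list of BASP1 relatives and corepressors held 7 genes, all tested, with a median log2 fold change of 0.45. None was called by edgeR, while 3 had an unadjusted p under 0.05 with a higher level in Wt1KOΔEC and 1 with a lower level. None of the 7 had overlapping genotypes, with 6 higher and 1 lower in Wt1KOΔEC, against 10.3% and 8.97% of all genes tested. With library size only, *Marcks*, *Marcksl1* and *Phb2* overlapped and the count was 3 higher and 1 lower, against 6.46% and 13.7% of all genes tested. This list was not tested as a set. *Gap43*, a growth cone protein related to BASP1, was at 46.5, 55.0 and 42.2 CPM in ControlΔEC and at 76.0, 73.6 and 91.8 CPM in Wt1KOΔEC. Its libraries were well apart (log2 fold change 0.75, SE 0.18, adjusted p = 0.170 by edgeR and 0.00598 by DESeq2). *Marcksl1*, another membrane-bound relative and the most abundant gene of the list, was at 331, 349 and 333 CPM against 448, 420.2 and 386 CPM (log2 fold change 0.31, SE 0.14, adjusted p = 0.388 by edgeR).

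The deacetylase genes of the list stood on opposite sides of 0. *Hdac1* was at 96.4, 92.4 and 80.8 CPM in ControlΔEC and at 143, 130.0 and 146 CPM in Wt1KOΔEC, and its genotypes were apart also with library size only. Its log2 fold change was 0.63 (SE 0.15), with an adjusted p of 0.170 by edgeR and 0.00180 by DESeq2. *Hdac2*, singled out here after its values were seen because it was the gene of the list on the lower side, was at 162, 159 and 84.4 CPM against 77.8, 79.1 and 82.9 CPM. The gap between the genotypes was narrow, since ControlΔEC replicate 3 lay just above the Wt1KOΔEC libraries (log2 fold change -0.76, SE 0.24, adjusted p = 0.253 by edgeR and 0.0594 by DESeq2).

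The m6A writer complex, in which WTAP holds the METTL3 and METTL14 catalytic pair in place, had the narrowest range of estimates, from -0.31 to 0.36. All 7 of its genes were tested, 0 had an unadjusted p under 0.05, 0 had genotypes that did not overlap and the median log2 fold change was 0.01. With library size only, 1 gene, *Virma*, was lower without overlap, against 13.7% of all genes tested. *Virma*, the large scaffold subunit, was at 80.9, 68.2 and 84.7 CPM in ControlΔEC and at 71.3, 56.8 and 60.5 CPM in Wt1KOΔEC, and these ranges overlapped (log2 fold change -0.31, SE 0.17, adjusted p = 0.491 by edgeR). *Rbm15b*, which brings the complex to its RNA sites, was at 17.4, 14.4 and 16.95 CPM against 24.1, 12.5 and 25.8 CPM, with Wt1KOΔEC replicate 2 the lowest of all (log2 fold change 0.36, SE 0.31, adjusted p = 0.713 by edgeR).

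The cytosolic iron-sulfur assembly genes around CIAO1 were 8, all tested, with a median log2 fold change of -0.13 and no gap between genotypes in any. With library size only, *Ciapin1* and *Ciao3* had a gap, both lower in Wt1KOΔEC, against 13.7% of all genes tested. *Ciapin1*, an electron carrier of the pathway, was the 1 gene with an unadjusted p under 0.05, at 73.7, 49.8 and 65.0 CPM in ControlΔEC and 51.1, 40.9 and 43.7 CPM in Wt1KOΔEC (log2 fold change -0.47, SE 0.20, adjusted p = 0.359 by edgeR). Of all genes tested, 7.12% had such a p with a lower level. *Ciao3* was at 29.1, 32.5 and 19.7 CPM against 21.5, 18.6 and 17.7 CPM (log2 fold change -0.49, SE 0.25, adjusted p = 0.460 by edgeR). *Mms19*, which hands clusters to DNA repair and replication enzymes together with CIAO1, was the most abundant, at 59.4, 83.2 and 73.5 CPM against 68.2, 58.5 and 50.4 CPM. All 3 of these genes had overlapping genotypes, and their estimates lay on the other side of 0 from that of *Ciao1*. *Nubp2* (0.46), *Ndor1* (1.35) and *Ciao2a* (0.10) had estimates on the same side as *Ciao1*, and the remaining genes of the list were below 0.

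Among the CITED family and its CBP and p300 circle, 5 of 9 genes were tested and 0 had an unadjusted p under 0.05 (median log2 fold change -0.20). *Hif1a*, the hypoxia factor that competes with CITED2 for p300, was at 369, 308 and 351 CPM in ControlΔEC and at 274, 317 and 303 CPM in Wt1KOΔEC. *Ep300*, the gene of p300, was at 44.3, 66.7 and 66.7 CPM against 53.8, 48.6 and 44.7 CPM. The genotypes overlapped for both, with log2 fold changes of -0.20 (SE 0.15) and -0.27 (SE 0.21). With library size only, *Hif1a* was lower without overlap in Wt1KOΔEC, against 13.7% of all genes tested.

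All 7 genes of the PAWR list, which holds kinases and other proteins that bind PAWR, were tested, with a median log2 fold change of 0.14. An unadjusted p under 0.05 with a higher level in Wt1KOΔEC was found for 1, against 5.96% of all genes tested. Without overlap, 1 was higher and 1 lower, against 10.3% and 8.97% of all genes tested. *Prkcz*, the atypical protein kinase C that PAWR inhibits, was at 1.25, 0.628 and 0.693 CPM in ControlΔEC and at 4.53, 2.86 and 2.73 CPM in Wt1KOΔEC. It was scarce, like *Pawr*, and all its Wt1KOΔEC libraries were higher (log2 fold change 1.97, SE 0.77, adjusted p = 0.328 by edgeR and 0.0368 by DESeq2). *Sqstm1*, the autophagy receptor that binds the same kinases, was the most abundant, at 1545, 1326 and 1343 CPM against 1299.8, 1128 and 968 CPM, a narrow gap between the genotypes (log2 fold change -0.31, SE 0.15, adjusted p = 0.443 by edgeR).

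All 8 genes of the Ajuba and zyxin list around WTIP were tested, and 2 had an unadjusted p under 0.05, both with lower levels in Wt1KOΔEC and genotypes that did not overlap (median log2 fold change -0.11). Of all genes tested, 7.12% had such a p with a lower level and 8.97% were lower without overlap. *Lats2*, a Hippo pathway kinase that the LIM proteins hold in check, was at 146, 112 and 115 CPM in ControlΔEC and at 78.0, 92.3 and 83.3 CPM in Wt1KOΔEC (log2 fold change -0.55, SE 0.17, adjusted p = 0.235 by edgeR and 0.0337 by DESeq2, where the fold limit kept it from a call). *Lpp*, a focal adhesion member of the family, was at 216, 291 and 254 CPM against 201, 193 and 174 CPM (log2 fold change -0.43, SE 0.16, adjusted p = 0.319 by edgeR). *Zyx* itself, the most abundant, overlapped between the genotypes, at 382, 394 and 249 CPM against 303, 327 and 302 CPM.

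Of 12 other proteins reported to bind WT1, 10 were tested and 1 had an unadjusted p under 0.05 (median log2 fold change -0.09). Of all genes tested, 13.1% had such a p. In the list, 2 genes were higher in Wt1KOΔEC without overlap, against 10.3% of all genes tested. *U2af2*, the splicing factor that WT1 carrying its KTS insert binds, was at 31.7, 29.6 and 46.2 CPM in ControlΔEC and at 61.2, 54.5 and 55.2 CPM in Wt1KOΔEC. Its genotypes did not overlap (log2 fold change 0.67, SE 0.21, adjusted p = 0.252 by edgeR and 0.0581 by DESeq2). *Trp53*, the tumour suppressor and the most abundant gene of this list, was at 349, 291 and 310.0 CPM against 381, 399 and 366 CPM (log2 fold change 0.27, SE 0.14, adjusted p = 0.475 by edgeR).

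Genes reported elsewhere as targets of WT1 form the last list, with 30 of 35 tested and a median log2 fold change of 0.33. By edgeR 0 were called, while 5 had an unadjusted p under 0.05 with a higher level in Wt1KOΔEC and 3 with a lower level, and DESeq2 called 6. Over all genes these shares were 5.96% and 7.12%, and 4.83% for DESeq2. *Bcl2*, the survival gene, had the smallest p, at 37.7, 44.3 and 29.7 CPM in ControlΔEC and at 17.4, 15.4 and 20.0 CPM in Wt1KOΔEC. Its libraries were clearly apart (log2 fold change -1.08, SE 0.23), but its adjusted p was 0.140 by edgeR with the filter on low counts, 0.0303 without that filter and 0.00111 by DESeq2. *Igf2*, the fetal growth factor, was at 2471, 2080.3 and 1885 CPM against 4039, 3279.8 and 2931 CPM, with all Wt1KOΔEC libraries higher (log2 fold change 0.67, SE 0.17, adjusted p = 0.190 by edgeR and 0.00859 by DESeq2).

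The other 4 targets that DESeq2 called are named after their values were seen. *Ets1*, an endothelial transcription factor, was lower in Wt1KOΔEC, with a mean of 463 ± 79.8 CPM in ControlΔEC and 304 ± 25.4 CPM (SD, n = 3) in Wt1KOΔEC. *Snai1*, a factor of the epithelial to mesenchymal transition, was at 3.13 ± 0.858 and 7.48 ± 1.11 CPM, and *Sox9*, a factor of progenitor and cartilage cells, at 4.10 ± 1.65 and 10.4 ± 1.78 CPM. *Ccl5*, a chemokine gene, was at 0.588 ± 0.129 and 3.68 ± 3.47 CPM. The adjusted p of these 4 genes was between 0.0136 and 0.0475 by DESeq2 and between 0.217 and 0.296 by edgeR.

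Likeness to *Wt1* was measured as the root mean square difference of log2 CPM, each gene centred on its own mean, over the 6 libraries and the 8469 genes with a mean of at least 10 CPM. A smaller value means a closer pattern, and the median over these genes was 1.51. Closest were *Ifi203* (0.638), *Papln* (0.643), *Lilrb4a* (0.644), *Gsap* (0.702) and *Ralgapa1* (0.737). *Lilrb4a*, a receptor of myeloid cells, was at 48.2, 121 and 74.4 CPM in ControlΔEC and at 17.2, 13.5 and 16.3 CPM in Wt1KOΔEC, while *Ralgapa1*, a regulator of Ral GTPases, was at 70.3, 50.5 and 72.7 CPM against 23.1, 22.3 and 22.5 CPM. Both had no overlap between the genotypes, as follows from being like *Wt1*. Summed over 6 macrophage markers, none of them at 0, the level was 187 to 557 CPM in ControlΔEC and 112 to 169.7 CPM in Wt1KOΔEC, and its part in the *Lilrb4a* pattern was not tested.

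By this measure of likeness, none of the partners was close to *Wt1*. Since *Wt1* differed so much between the genotypes, the measure mostly repeats the fold changes given above. It does not show whether a partner tracks *Wt1* between replicates. The root mean square difference was 1.39 for *Wtap*, 1.44 for *Wtip*, 1.61 for *Basp1*, 1.70 for *Ciao1*, 1.97 for *Cited2* and 2.03 for *Pawr*. *Wtap* and *Wtip*, with fold changes below 0, lay on the near side of the median over genes and the other 4 on the far side. *Wtip*, *Basp1*, *Cited2* and *Pawr* had means under 10 CPM and so were outside the 8469 genes.

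**Figure D4:**
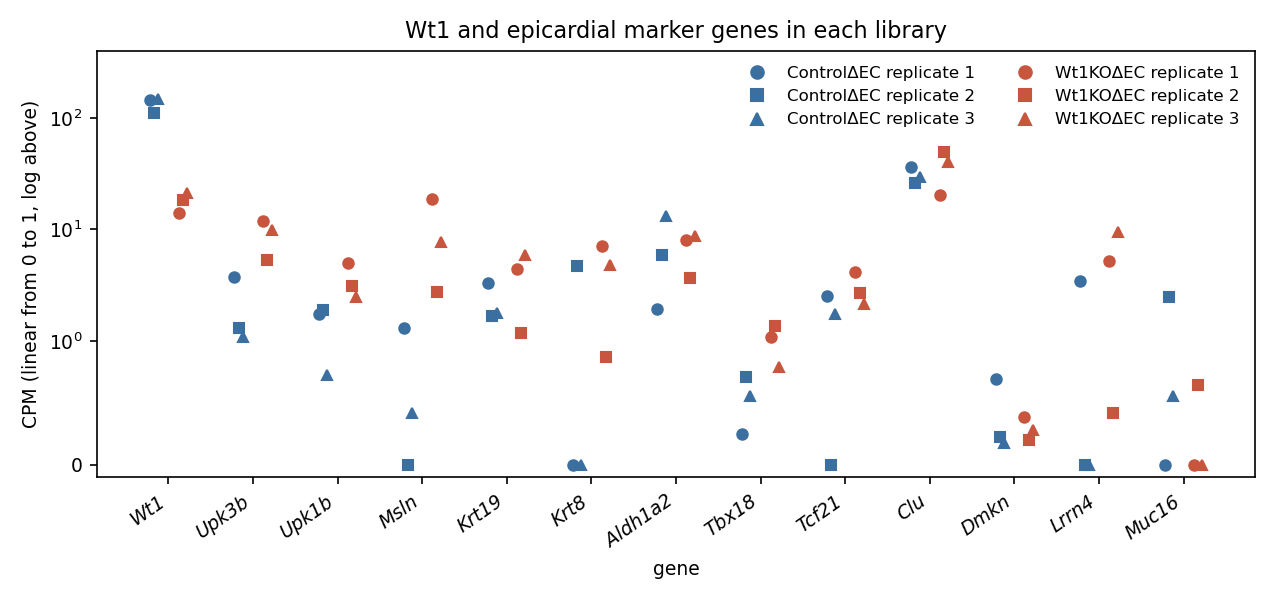
*Wt1* and 12 epicardial marker genes (x axis) in each library, as CPM (y axis, linear from 0 to 1 and logarithmic above), with ControlΔEC in blue, Wt1KOΔEC in red and symbols for the replicates. *Wt1* is lower in Wt1KOΔEC, while *Upk3b*, *Msln*, *Upk1b* and *Tbx18* lie higher there in every library.

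Epicardial cells make *Wt1* strongly, so their markers were set beside it. By the study's imaging of this Cre line, mGFP marked vessels of the compact myocardium and neither epicardium nor ventricular endocardium. The study also took relatively low counts of *Upk1b*, *Upk3b*, *Clu* and *Dmkn* in its sequencing data as a check of the sort. Whether the mGFP gate removed all cells of the epicardium and endocardium was not tested here. The 12 epicardial genes, each detected in at least one library, summed to 44.99 to 55.2 CPM in ControlΔEC and to 71.4 to 92.0 CPM in Wt1KOΔEC, the opposite direction from *Wt1*. By edgeR 0 of the 12 were called and 2 had an unadjusted p under 0.05, both with higher levels in Wt1KOΔEC and both called by DESeq2. Of all genes tested, 5.96% had such a p with a higher level, and DESeq2 called 4.83% of the genes in its test. *Upk3b*, *Msln*, *Upk1b* and *Tbx18* were higher in Wt1KOΔEC without overlap, against 10.3% of all genes tested. *Tbx18* was scarce, with 11 to 48 counts per library. The genotypes of the other markers overlapped. *Msln*, a mesothelial surface protein, was at 1.32, 0 and 0.416 CPM in ControlΔEC and at 18.9, 2.75 and 7.75 CPM in Wt1KOΔEC. *Upk3b*, a uroplakin of the same cells, was at 3.71, 1.32 and 1.07 CPM against 12.0, 5.28 and 9.89 CPM. Wt1KOΔEC replicate 1, which had the lowest *Wt1* of all libraries, had the highest level of both. *Upk1b*, *Krt8* and *Tcf21* were also highest in that replicate, at 4.99, 7.06 and 4.12 CPM. The remaining markers of the list were highest in other libraries. *Clu* was lowest of all libraries in that replicate, at 20.4 CPM, and *Krt19* was highest in Wt1KOΔEC replicate 3, at 5.93 CPM. The log2 fold changes of *Aldh1a2* (-0.05), *Dmkn* (-0.34) and *Muc16* (-2.19) were below 0, and those of the remaining markers above 0. *Clu* made up most of the sum in ControlΔEC, at 36.3, 26.1 and 29.8 CPM, and *Msln*, *Krt8*, *Tcf21*, *Lrrn4* and *Muc16* were each at 0 in at least 1 library. What share of the *Wt1* left in Wt1KOΔEC came with these markers was not tested.

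Markers of other cardiac cells were also read beside *Wt1*. Summed levels in ControlΔEC and Wt1KOΔEC were 318 to 477 and 526 to 696 CPM for 7 fibroblast genes, 179 to 368 and 144 to 162 CPM for 7 mural genes, 102 to 139 and 72.3 to 177 CPM for 6 cardiomyocyte genes, and 235 to 325 and 361 to 450.4 CPM for 5 endocardial genes. The fibroblast and endocardial sums were higher and the mural sum lower in every Wt1KOΔEC library. The cardiomyocyte sums overlapped, and no gene of these lists was at 0 in all libraries. *Col1a1* held much of the rise of the fibroblast sum, at a mean of 114 CPM in ControlΔEC and 290 CPM in Wt1KOΔEC. *Gata4* held much of the endocardial rise, at 30.9 and 93.8 CPM. Other genes did not follow their sum. The fibroblast gene *Dpt* (log2 fold change -1.60) was lower without overlap. The fibroblast genes *Postn* (-0.16) and *Lum* (0.04) and the mural genes *Tagln* (0.92) and *Acta2* (-0.04) overlapped between the genotypes. Of the 24 genes tested, edgeR called 1, the fibroblast collagen gene *Col1a1*, higher in Wt1KOΔEC, against 0.0736% of all genes tested. DESeq2 called 7, against 4.83% of all genes in that test. Of these 7, *Col1a1*, *Dcn*, *Hapln1* and *Gata4* were higher and the mural genes *Pdgfrb*, *Rgs5* and *Cspg4* lower. Their part in the values of the partners was not tested.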

How the data were processed

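RNA-Seq was analysed for 3 ControlΔEC and 3 Wt1KOΔEC libraries of mGFP-sorted cells, prepared with SMART-seq2 and Nextera XT. The authors aligned reads with STAR 2.7.8a and counted genes with RSEM 1.3.0, and the deposited values are expected counts per gene, already rounded to whole numbers and not normalized. The study's methods name GRCm39 with GENCODE vM27, while the submitters' processing notes name GRCm38. The table itself gives no coordinates.

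Genes that reached 10 counts in 2 or more libraries were fitted in edgeR 4.0.16 (R 4.3.3) with TMM scaling, the quasi-likelihood F test and Benjamini-Hochberg adjustment over 16296 genes. DESeq2 1.42.0, the tool of the study (version 1.18 there), and limma-voom (limma 3.58.1) were alternatives, besides other scalings, filters, a replicate block and each library left out in turn. The SE is the size of the estimate divided by the root of its F statistic, and 95% intervals use the t distribution with the degrees of freedom of the fit. Each fit was first tested on simulated data. With 3 libraries against 3, p-values set the genotype difference against the spread between these libraries, which the fits estimate with information shared across genes.

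Exonic lengths and positions came from GENCODE vM39 on GRCm39, matched by gene ID for 54749 of 55416 genes and for 7 of 7 followed here. The lists and the 7 genes were chosen with earlier results of these data known. From each list the 2 tested genes with the smallest p and the gene with the highest mean CPM are named, and for likeness the 5 closest genes. *Snrnp200*, *Hdac2*, *Marcks*, *Phb2*, *Nubp2*, *Ndor1* and *Ciao2a* were named after their values were seen. So were all cell type markers that are named and the targets called by DESeq2 alone.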

Additional observations from a re-analysis of the deposited data

How the results depend on the processing

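*Wt1* was called in all 15 alternatives, with log2 fold changes from -3.05 (without Wt1KOΔEC replicate 3) to -2.76 (without Wt1KOΔEC replicate 1), the range over libraries left out, and adjusted p-values up to 0.0452. The count of the 7 genes called was 1 in each alternative, and the order of levels in ControlΔEC was the same in the 5 alternatives run for it (no length, longest transcript, each ControlΔEC library left out). Leaving out single libraries gave ranges of 0.06 to 0.58 for *Basp1*, 0.93 to 1.503 for *Pawr*, -0.33 to 0.00178 for *Wtap*, -0.73 to 0.17 for *Wtip*, 0.13 to 0.81 for *Cited2* and 0.24 to 0.50 for *Ciao1*. The sign turned for *Wtap* without ControlΔEC replicate 1 (0.00178) and for *Wtip* without ControlΔEC replicate 1 (0.17) or Wt1KOΔEC replicate 3 (0.02), none of them a call. Over all lists, 0 genes were called by edgeR, 9 by DESeq2 and 1 (*Bcl2*) without the low count filter, and the cause was not tested.

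Over all genes, edgeR called 12 (8 higher, 4 lower), DESeq2 767 (349 and 418), limma-voom 8 (7 and 1), library size only 11 (5 and 6), no low count filter 296 (125 and 171), and leaving out single libraries 2 (without Wt1KOΔEC replicate 3) to 37 (without ControlΔEC replicate 3). Library size only moved the median log2 fold change of all genes from -0.03 to -0.18. Leaving out *Rn18s* and mitochondrial genes, chosen after seeing the data, gave 12 calls. Counts of list genes without overlap under library size only were also added then.

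Samples with the same replicate number did not deviate together (r = 0.0566, 0.00448 and 0.0201), and not every sample correlated best with its own number, so the numbers were not taken as pairs. With the number as a block, *Wt1* had a log2 fold change of -2.92 (adjusted p = 0.00834 by edgeR), 1 of the 7 genes and 0 list genes were called, and 5 genes were called in all. Counts limit *Pawr*, *Wtip* and *Basp1* most.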
